A study of Mus musculus with 6 samples.

Results

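The histone genes encode the proteins that package DNA. Their RNA was followed here in mouse aortic cultures labelled as endothelial cells, ERK1/2 null (3 arrays) or ERK1/2 wild type (3 arrays). ERK1 and ERK2 are the kinases that carry growth factor signals to the nucleus. A probe set of the Affymetrix array was taken as a member when every gene symbol annotated to it, in its current or older form, was a histone gene of the Hist1 to Hist4 clusters, an H1f gene, or the variant gene H2afx, H2afz, H2afy, H2afv, H3f3a, H3f3b or H1f0. The rule gave 40 of 16775 probe sets, 23 that name 1 gene and 17 that name several, and together they name 69 genes. Of these probe sets 31 name cluster genes and 9 name histone genes outside the clusters. H1f0 is named by none of the 40, and H2az1 (H2afz) shared its probe set with a gene that encodes no histone, so both were left out.

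Cells came from the aorta of mice aged 4 weeks (strain C57/BL6, 5 generations). The genotype label reads Erk1-/-; Erk2fl/fl for both groups. The ERK1/2 null cultures received a lentivirus with Cre recombinase, which the genotype label gives as egfp-Cre for replicate 1 and as Cre for replicates 2 and 3, while the source label gives egfp-Cre for all 3. The ERK1/2 wild type cultures received a lentivirus with GFP and no Cre. The promoter that drives Cre is not given in the sources used here, and the targeted kinase genes were not analysed here. Read by the genotype label, both groups lack Erk1 and have floxed Erk2, and they differ in Cre and what Cre deletes; the groups are called here as in the titles. All cultures grew in medium with 20% fetal bovine serum, heparin and endothelial growth supplement. Values are log2 expression after robust multi-array averaging (RMA), in which 1 unit is a doubling, and levels are compared only within a probe set. The titles call the arrays biological replicates numbered 1 to 3 in each group. No label says what a shared number means. Unless a block is named, p-values set the difference between groups against the spread between arrays of the same group.

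As background, 2 molecules each of H2A, H2B, H3 and H4 form the nucleosome core and a linker histone H1 binds the DNA between cores. The cluster genes are called replication-dependent because their RNA is made mainly in S phase, and most of it ends in a stem-loop bound by the protein SLBP in place of a poly(A) tail. Some cluster genes can also give polyadenylated RNA in cells that have left the cell cycle. Variant histones such as H3.3, H2A.Z and macroH2A are made throughout the cell cycle and replace cluster histones at particular places in chromatin. Many cluster genes encode identical or nearly identical proteins, and 42 of the 69 genes are named by more than 1 probe set. A multi-gene probe set is therefore called here by its first 2 annotated symbols, its value cannot be assigned to 1 gene, and probe sets that share genes are not independent.

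Of the 40 histone probe sets, 13 were lower and 1 was higher in ERK1/2 null cultures by limma (adjusted p under 0.05, adjusted over all 16775 probe sets), and 26 did not pass. Over the whole array 5.59% of probe sets were called lower and 4.80% higher. The 13 decreases ran from 1.37-fold to 5.45-fold, 10 of them at 2-fold or more, and the single increase was 5.47-fold. The median log2 difference was −0.38 over the 40 histone probe sets and 0.02 over all probe sets. Counting both directions, 14 histone probe sets and 10.4% of the whole array were called. Among the 40, the groups did not overlap in 17 with null lower and in 3 with null higher, and over the whole array they did not overlap in 30.3% of probe sets, both directions counted. In these cultures fewer cells in S phase and less histone RNA per cell cannot be told apart.

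**Figure D1:**
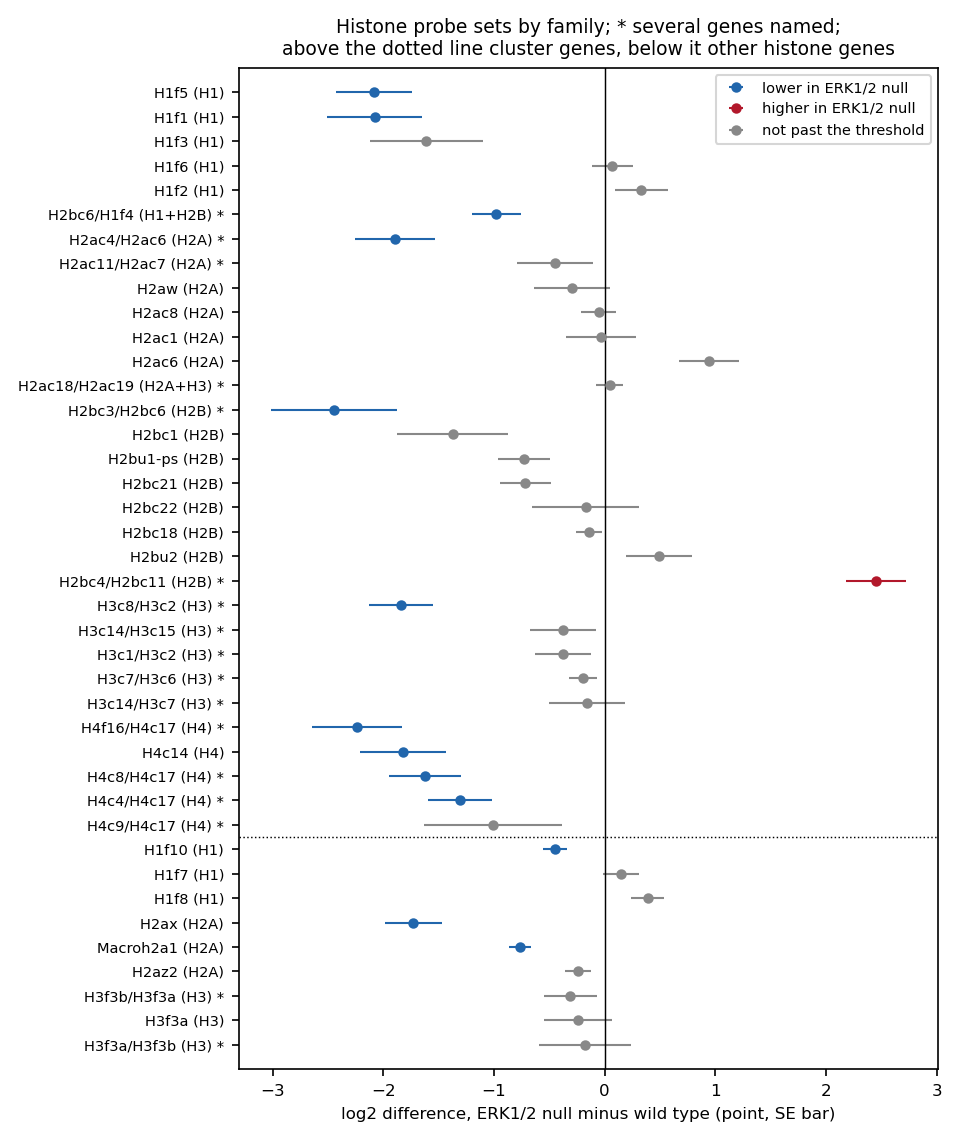
Log2 difference of each of the 40 histone probe sets, ERK1/2 null minus wild type, with its standard error from limma, grouped by histone family; an asterisk marks a probe set that names several genes. The H4 probe sets all lie left of 0, the H3 probe sets lie between −1.84 and −0.16, and the H2bc4/H2bc11 probe set stands alone at 2.45.

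Genes of DNA synthesis measured for context fell in the same arrays. All 11 measured members of a list of 13 S phase genes were lower in ERK1/2 null cultures by limma, with a median log2 difference of −2.18. Markers of cell types were measured as well, since the name endothelial is taken from the labels. Of 7 fibroblast markers 2 rose by limma (6 with the replicate number as a block), and the median level of the list was 9.53 to 11.18 in null arrays and 8.27 to 9.77 in wild type arrays. Of 6 smooth muscle markers 1 rose (3 with that block; list medians 5.09 to 5.68 in null arrays and 3.88 to 4.63 in wild type arrays), and of 5 macrophage markers none passed (list medians 3.05 to 3.35 in null arrays and 3.07 to 3.49 in wild type arrays; none at an unadjusted p under 0.05). Of 10 endothelial markers none passed by limma, 1 had an unadjusted p under 0.05 and 1 was called higher with the block. Their list medians were 3.75 to 4.07 in null arrays and 3.70 to 4.05 in wild type arrays. In level, 7 of the 10 were among the dimmest 30% of probe sets, including Pecam1, Cdh5, Kdr, Tek and Vwf. The part of cell makeup in the histone values was not tested.

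Linker histone genes of the Hist1 cluster differed among themselves. H1f5, which encodes H1.5, had log2 values of 9.87, 9.41 and 10.41 in null arrays and 12.21, 11.39 and 12.34 in wild type arrays, and H1f1, which encodes H1.1, had 4.72, 4.39 and 5.81 in null arrays and 7.54, 6.48 and 7.12 in wild type arrays. The groups did not overlap in either gene. H1f5 fell 4.24-fold (9.90 ± 0.50 against 11.98 ± 0.51, SD, n = 3 each; log2 difference −2.08, SE 0.34, limma adjusted p = 0.016) and H1f1 fell 4.22-fold (log2 difference −2.08, SE 0.43, limma adjusted p = 0.031). H1f3, the gene of H1.3, had 2.70, 2.28 and 3.77 in null arrays and 4.73, 3.67 and 5.18 in wild type arrays. The highest null array of H1f3 lay above the lowest wild type array (log2 difference −1.61, SE 0.51, limma adjusted p = 0.11, blocked 0.0069). H1f2, the gene of H1.2, had 9.36, 9.76 and 10.07 in null arrays and 9.38, 9.07 and 9.73 in wild type arrays, with overlapping groups (log2 difference 0.33, SE 0.24, limma adjusted p = 0.48). The testis linker gene H1f6 differed by 0.07 and lay in the dimmest 30% of the table. A probe set that names H1f4, the gene of H1.4, together with 6 H2B genes fell by 0.98 (H2bc6/H1f4; SE 0.22, limma adjusted p = 0.041).

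The promoters of 62 of the 69 genes were in the RefSeq table (GRCm38.p6, 250 bases before to 50 after the start), and they were searched on both strands for the TATA box TATAAA, the CCAAT box CCAAT, the octamer ATTTGCAT and the H1 box AAACACA, known as elements of histone promoters. No motif overlapped another in these promoters. Of the 6 cluster H1 promoters, all 6 held CCAAT, 4 held TATAAA and 5 held AAACACA, against 37.4%, 13.6% and 7.18% of all 32851 promoters in the table. The promoters of the 2 linker genes that fell and of H1f2 are shown so that they can be read side by side, with the motifs in capitals. They lie at chr13:21780576-21780875 (minus strand), chr13:23763418-23763717 (plus strand) and chr13:23738557-23738856 (plus strand).
H1f5: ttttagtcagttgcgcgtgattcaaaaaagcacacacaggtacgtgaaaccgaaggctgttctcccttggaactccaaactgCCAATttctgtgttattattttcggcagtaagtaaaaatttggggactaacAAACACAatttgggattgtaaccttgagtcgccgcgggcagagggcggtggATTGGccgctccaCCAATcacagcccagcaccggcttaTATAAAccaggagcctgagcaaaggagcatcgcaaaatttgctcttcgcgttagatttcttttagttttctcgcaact
H1f1: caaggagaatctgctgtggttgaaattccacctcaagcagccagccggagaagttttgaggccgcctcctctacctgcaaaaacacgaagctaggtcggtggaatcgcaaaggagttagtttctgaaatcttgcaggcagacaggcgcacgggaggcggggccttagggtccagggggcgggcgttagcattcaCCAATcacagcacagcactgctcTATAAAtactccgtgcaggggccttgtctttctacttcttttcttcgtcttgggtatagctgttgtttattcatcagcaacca
H1f2: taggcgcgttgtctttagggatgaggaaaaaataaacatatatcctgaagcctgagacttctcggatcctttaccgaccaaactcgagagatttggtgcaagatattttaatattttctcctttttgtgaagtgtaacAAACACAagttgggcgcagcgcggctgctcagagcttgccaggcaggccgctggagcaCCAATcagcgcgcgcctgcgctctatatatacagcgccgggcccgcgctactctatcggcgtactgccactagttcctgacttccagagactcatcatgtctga
The promoter of H1f1 held no AAACACA and that of H1f2 no TATAAA in this window, and a match or its lack is only a description of these letters.

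All 5 H4 probe sets had lower means in ERK1/2 null cultures, and 4 of them fell. Nearly all H4 genes encode the same protein. The H4f16/H4c17 probe set had 5.55, 5.76 and 6.73 in null arrays and 8.25, 7.67 and 8.85 in wild type arrays, a 4.72-fold decrease (log2 difference −2.24, SE 0.41, limma adjusted p = 0.021). This probe set and the other 3 multi-gene H4 probe sets name the same 13 genes. H4c14, the only H4 gene with a probe set of its own, had 6.32, 6.25 and 7.23 in null arrays and 8.76, 7.71 and 8.79 in wild type arrays, and fell 3.54-fold (6.60 ± 0.54 against 8.42 ± 0.61, SD, n = 3 each; limma adjusted p = 0.034). In both the lowest wild type array, replicate 2, stood above the highest null array, replicate 3. The H4c8/H4c17 probe set fell by 1.63 (SE 0.33, limma adjusted p = 0.029) and H4c4/H4c17 by 1.31 (SE 0.29, limma adjusted p = 0.038). In H4c9/H4c17, null replicate 1 stood at 3.87 while the other 5 arrays lay between 6.11 and 6.55 (log2 difference −1.01, SE 0.62, limma adjusted p = 0.39). The H4 promoters differed in letters from the other families, in that 3 of 12 held CCAAT while all 10 H3, all 13 H2A and all 15 H2B cluster promoters did. The promoter of H4c4 at chr13:23581318-23581617 (plus strand), which holds both CCAAT and TATAAA, is shown as an example, with the motifs in capitals.
H4c4: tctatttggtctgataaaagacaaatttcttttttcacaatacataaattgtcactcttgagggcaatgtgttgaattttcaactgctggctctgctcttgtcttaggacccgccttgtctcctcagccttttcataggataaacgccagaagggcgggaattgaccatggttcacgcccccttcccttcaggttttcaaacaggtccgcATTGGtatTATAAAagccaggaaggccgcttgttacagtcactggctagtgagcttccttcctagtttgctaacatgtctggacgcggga

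**Figure D2:**
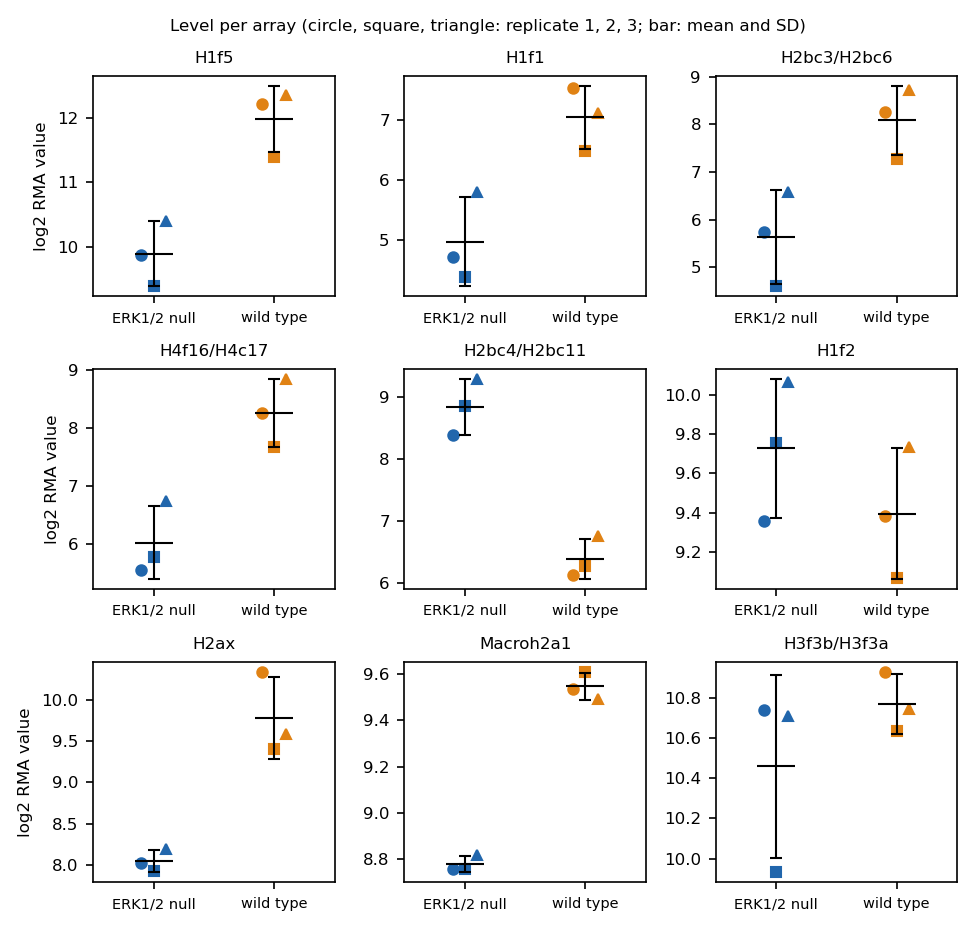
Log2 RMA value of 9 histone probe sets in each array, ERK1/2 null at left and wild type at right, with the mean and SD of each group (n = 3); the vertical scale differs between panels. H1f5, H1f1, H2bc3/H2bc6, H4f16/H4c17, H2ax and Macroh2a1 are lower in every null array than in every wild type array, H2bc4/H2bc11 is higher, and H1f2 and H3f3b/H3f3a overlap.

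The H2B genes gave the largest decrease and the largest increase of all histone probe sets. The H2bc3/H2bc6 probe set had 5.75, 4.60 and 6.57 in null arrays and 8.26, 7.28 and 8.71 in wild type arrays, and fell 5.45-fold (log2 difference −2.45, SE 0.57, limma adjusted p = 0.046; 0.0029 with the replicate block). The H2bc4/H2bc11 probe set had 8.38, 8.85 and 9.28 in null arrays and 6.13, 6.27 and 6.76 in wild type arrays, and rose 5.47-fold (8.84 ± 0.45 against 6.39 ± 0.33, SD, n = 3 each; log2 difference 2.45, SE 0.27, limma adjusted p = 0.0049). The groups did not overlap in either probe set, and the differences ran in opposite directions. All 6 genes of the first probe set are also among the 11 genes named by the second, which adds H2bc7, H2bc11, H2bc12, H2bc13 and H2bc15, so the annotation does not say which RNA rose. The increase was called in each of 6 fits that left out 1 array, with limma adjusted p up to 0.029. The decrease of H2bc3/H2bc6 was called in 1 of these 6 fits, that without null replicate 3, with limma adjusted p up to 0.14. H2bc21 of the Hist2 cluster had 5.57, 5.14 and 4.95 in null arrays and 6.27, 5.93 and 5.60 in wild type arrays, a log2 difference of −0.72 that passed with the replicate block (limma adjusted p = 0.11, blocked 0.019). The Hist3 pseudogene H2bu1-ps differed by −0.73 (limma adjusted p = 0.11, blocked 0.022). H2bc1, which encodes the testis histone TH2B, differed by −1.37 (limma adjusted p = 0.15, blocked 0.0091). It passed without wild type replicate 2 (0.044) but not with the replicate number as a random block (H2bc1, adjusted p = 0.062). H2bc18, H2bc22 and H2bu2 differed by −0.14, −0.17 and 0.49 without passing.

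Among the 6 cluster H2A probe sets, 1 fell and 0 rose by limma. The H2ac4/H2ac6 probe set, which names 9 genes, had 5.47, 6.29 and 6.17 in null arrays and 8.14, 7.16 and 8.32 in wild type arrays, and fell 3.72-fold (log2 difference −1.89, SE 0.36, limma adjusted p = 0.025). The probe set that names H2ac6 alone had 4.57, 5.06 and 5.26 in null arrays and 3.67, 4.48 and 3.90 in wild type arrays. Every null array was thus above every wild type array for H2ac6, by a narrow margin over wild type replicate 2, and the difference passed with the replicate block (log2 difference 0.95, SE 0.27, limma adjusted p = 0.080, blocked 0.029). H2ac11/H2ac7, which names the same 9 genes as the probe set that fell, and H2ac8 lay in the dimmest 30% of the table and differed by −0.45 and −0.05, while H2aw of the Hist3 cluster and the testis gene H2ac1 differed by −0.29 and −0.03. A probe set that names 2 Hist2 H2A genes with 8 H3 genes (H2ac18/H2ac19) differed by 0.05 (SE 0.12, limma adjusted p = 0.88). The octamer, known from H2B promoters, was present in 6 of 15 cluster H2B promoters and 5 of 13 cluster H2A promoters, against 1.74% of all promoters, and in none of the cluster H1, H3 or H4 promoters. The promoters of H2bc3, the first gene of the probe set that fell most, and of H2ac6 each held the octamer, the CCAAT box and the TATA box. They lie at chr13:23746484-23746783 (plus strand) and chr13:23683910-23684209 (minus strand) and are shown with the motifs in capitals.
H2bc3: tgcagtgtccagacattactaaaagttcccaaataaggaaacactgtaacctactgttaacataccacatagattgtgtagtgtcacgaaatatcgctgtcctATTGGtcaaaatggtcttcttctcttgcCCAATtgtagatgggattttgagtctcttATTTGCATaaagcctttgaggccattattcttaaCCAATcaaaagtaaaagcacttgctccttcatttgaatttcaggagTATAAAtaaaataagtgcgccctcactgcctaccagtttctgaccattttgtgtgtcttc
H2ac6: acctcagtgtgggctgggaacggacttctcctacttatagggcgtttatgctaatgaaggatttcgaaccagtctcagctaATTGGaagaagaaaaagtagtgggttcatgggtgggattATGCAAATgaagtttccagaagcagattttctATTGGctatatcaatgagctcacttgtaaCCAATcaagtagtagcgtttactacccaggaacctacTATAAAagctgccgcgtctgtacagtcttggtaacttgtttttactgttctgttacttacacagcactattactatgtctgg

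Of the 5 probe sets that name only cluster H3 genes, which encode the replication-dependent proteins H3.1 and H3.2, 1 fell. H3c8/H3c2 had 3.58, 3.89 and 4.06 in null arrays and 6.15, 5.08 and 5.82 in wild type arrays, a 3.58-fold decrease with groups well apart (log2 difference −1.84, SE 0.29, limma adjusted p = 0.014). The other 4 differed by −0.38 (H3c14/H3c15), −0.38 (H3c1/H3c2), −0.20 (H3c7/H3c6) and −0.16 (H3c14/H3c7), and 3 of them lay in the dimmest 30% of the table. H3c1/H3c2 is among those 3 and names the same 7 genes as H3c8/H3c2.

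Of the 31 cluster probe sets, 20 lay above the dimmest 30% of the table and 11 within it, by the mean over all 6 arrays. The mean takes in both groups, so a change can itself set the side on which a probe set falls, and no count of calls is compared between the sides. Of the 11 dim ones H1f3, H2bc1 and H2bu1-ps were called with the replicate block, and none was called without it by limma (3 lower at an unadjusted p under 0.05).

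Among histone genes outside the clusters, 3 of 9 probe sets fell. H2ax encodes the H2A form that is phosphorylated at DNA breaks and is transcribed in S phase like cluster genes. It had 8.02, 7.93 and 8.20 in null arrays and 10.34, 9.40 and 9.59 in wild type arrays, and fell 3.31-fold (8.05 ± 0.14 against 9.78 ± 0.50, SD, n = 3 each; log2 difference −1.73, SE 0.25, limma adjusted p = 0.011). Macroh2a1, which encodes the macroH2A1 variant known from the inactive X chromosome and silent genes, had 8.76, 8.76 and 8.82 in null arrays and 9.54, 9.61 and 9.49 in wild type arrays. The arrays of each group lay within a narrow band for this gene, and it fell 1.70-fold (log2 difference −0.77, SE 0.10, limma adjusted p = 0.0081). H1f10, which encodes the replication-independent linker H1.10, had 6.29, 6.38 and 6.35 in null arrays and 6.77, 6.71 and 6.88 in wild type arrays, and fell by 0.45 (SE 0.11, limma adjusted p = 0.047; 0.067 with the replicate block).

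The probe sets that name the H3.3 genes or the gene of H2A.Z.2 did not pass. H3f3b/H3f3a, a probe set of the 2 genes that encode the replacement histone H3.3, had 10.74, 9.93 and 10.71 in null arrays and 10.93, 10.63 and 10.75 in wild type arrays, with overlapping groups (log2 difference −0.31, SE 0.24, limma adjusted p = 0.50). H3f3a alone differed by −0.24 (SE 0.31) and H3f3a/H3f3b by −0.18 (SE 0.42). H2az2, which encodes H2A.Z.2, had 8.32, 8.47 and 8.21 in null arrays and 8.58, 8.50 and 8.62 in wild type arrays (log2 difference −0.24, SE 0.12, limma adjusted p = 0.27). The linker genes of testis (H1f7) and oocyte (H1f8) differed by 0.15 and 0.39 and lay in the dimmest 30% of the table. Whether the called and uncalled variants differ from each other, or from cluster genes, was not tested. Macroh2a1 fell, while H3f3b was measured only together with H3f3a, in probe sets that did not pass, so no value belongs to H3f3b alone. The promoters of Macroh2a1, at chr13:56135501-56135800 (minus strand), and H3f3b, at chr11:116024455-116024754 (minus strand), are shown as examples, again with the motifs in capitals.
Macroh2a1: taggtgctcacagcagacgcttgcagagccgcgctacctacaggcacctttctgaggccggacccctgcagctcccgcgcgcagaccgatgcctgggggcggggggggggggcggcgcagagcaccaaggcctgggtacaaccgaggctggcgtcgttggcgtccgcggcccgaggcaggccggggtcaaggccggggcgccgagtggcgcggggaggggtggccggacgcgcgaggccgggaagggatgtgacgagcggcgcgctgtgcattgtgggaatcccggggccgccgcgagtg
H3f3b: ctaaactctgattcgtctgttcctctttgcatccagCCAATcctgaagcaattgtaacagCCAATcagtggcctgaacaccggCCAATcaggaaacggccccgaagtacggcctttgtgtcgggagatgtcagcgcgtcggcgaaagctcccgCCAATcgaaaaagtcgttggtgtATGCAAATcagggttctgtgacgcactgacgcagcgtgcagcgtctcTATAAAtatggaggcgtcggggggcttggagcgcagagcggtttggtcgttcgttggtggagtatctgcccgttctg
None of the 4 motifs was in the Macroh2a1 window, while that of H3f3b held the TATA box, the CCAAT box and the octamer.

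The size of the decreases varied with the replicate number. Over the 13 probe sets called lower, the median log2 difference between arrays of the same number was −2.33, −1.20 and −1.68 for replicates 1, 2 and 3. The median level of these 13 was 6.29, 6.29 and 6.73 in null arrays and 8.26, 7.67 and 8.79 in wild type arrays. Wild type replicate 2 was the lowest wild type array in 12 of the 13, Macroh2a1 being the exception, and in 24.8% of all probe sets. All 13 were lower within all 3 pairs, which had to be so because the groups did not overlap in any of them. Of the 40 histone probe sets 21 were lower and 5 higher in every pair, against 23.1% and 27.7% of all probe sets. Arrays of equal number deviated together from their group means, and with the number as a block 16 histone probe sets were lower and 2 higher, against 7.17% and 8.20% of all probe sets. The block added H1f3, H2bc1, H2bu1-ps and H2bc21 to the decreases and H2ac6 to the increases, and it removed H1f10. Without a block the calls of 2 probe sets, H2bc4/H2bc11 and Macroh2a1, were kept in all 6 fits that left out 1 array, those of 11 in some, and that of H1f10 in none. The highest adjusted p over these fits lay between 0.053 (H2ax, without null replicate 2) and 0.14 (H2bc3/H2bc6, without wild type replicate 3) for the 11. Without null replicate 2, 1 decrease (Macroh2a1) remained, and the log2 differences of H1f5 over the 6 fits stayed between −2.38 and −1.84.

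**Figure D3:**
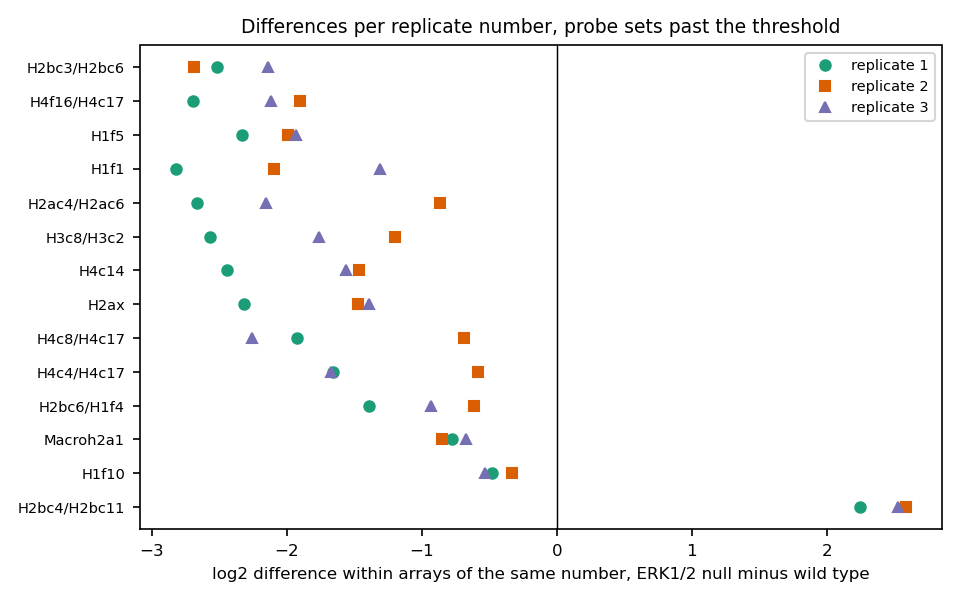
Log2 difference between the null and the wild type array of the same replicate number for the 14 histone probe sets past the threshold; each symbol is 1 replicate number. All differences of the 13 decreases lie below 0, between −2.82 and −0.33, and those of H2bc4/H2bc11 lie between 2.24 and 2.58. Their signs are fixed, because the groups do not overlap in any of the 14.

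Genes that make, mature and degrade stem-loop histone RNA were read from the same fit. Of 10 measured genes out of 13 written, 4 fell, 6 did not pass and none rose by limma (none at an unadjusted p under 0.05), with a median log2 difference of −0.46. Slbp, which encodes the stem-loop binding protein, had 3.95 ± 0.89 in null arrays and 6.12 ± 0.13 in wild type arrays (SD, n = 3 each), and fell 4.49-fold (log2 difference −2.17, SE 0.42, limma adjusted p = 0.026). Of the 6 fits with 1 array removed, only that without null replicate 3 still called it, and the highest adjusted p was 0.091, without wild type replicate 3. Eri1, an exonuclease that trims and degrades histone RNA at the stem-loop, fell 2.34-fold (log2 difference −1.22, SE 0.13, limma adjusted p = 0.0043). Cstf2, the cleavage factor subunit CstF64, fell by 0.96 (SE 0.10, limma adjusted p = 0.0042). Casp8ap2, the gene of FLASH, which binds the U7 particle, fell by 0.96 (SE 0.15, limma adjusted p = 0.015). The cleavage complex genes Cpsf2 and Sympk had the lowest p among those that did not pass (log2 differences −0.50 and −0.31; limma adjusted p = 0.067 and 0.32).

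Histone chaperones carry new histones from synthesis to DNA, and 15 of 24 measured genes out of 30 written fell, 9 did not pass and none rose by limma (none at an unadjusted p under 0.05), with a median log2 difference of −0.76. The genes of CAF-1, which deposits H3 and H4 behind the replication fork, fell: Chaf1a had 6.70 ± 0.13 in null arrays and 8.44 ± 0.15 in wild type arrays, and Chaf1b had 6.72 ± 0.23 in null arrays and 8.97 ± 0.39 in wild type arrays (SD, n = 3 each). Their log2 differences were −1.74 (SE 0.13, limma adjusted p = 0.0019) and −2.25 (SE 0.23, limma adjusted p = 0.0040). Asf1b, an H3 and H4 chaperone of dividing cells, fell 5.09-fold (7.43 ± 0.33 against 9.78 ± 0.06, SD, n = 3 each; limma adjusted p = 0.0020). Asf1a, its paralogue, differed by −0.71 and passed with the replicate block (limma adjusted p = 0.21, blocked 0.027). Nasp, a chaperone that holds the pool of free H3 and H4, fell (log2 difference −1.72, limma adjusted p = 0.0042), as did Hat1, which acetylates new H4 (log2 difference −1.51, limma adjusted p = 0.0053). The H3 and H4 binding genes Tonsl and Dnajc9 fell by log2 differences of −1.11 and −0.98 (limma adjusted p = 0.016 and 0.022).

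Among genes of other histone routes some fell and some did not pass. The H2A and H2B carrier genes Nap1l1 and Nap1l4 had log2 differences of −1.18 and −0.46, and Nap1l4 was not called under the block (limma adjusted p = 0.039, blocked 0.056). Anp32e, which removes H2A.Z, fell (−1.24), as did the histone carrier gene Set (−1.02), Supt16, which encodes a subunit of FACT (−0.81), and Rbbp7, a binder of H4 (−0.66, limma adjusted p = 0.049). Rbbp4, also a CAF-1 subunit, passed with the block (log2 difference −0.54, limma adjusted p = 0.057, blocked 0.044). Hira, which deposits H3.3 outside replication, fell by 0.67 (SE 0.13, limma adjusted p = 0.023). The H3.3 depositors Daxx and Atrx differed by 0.23 and −0.07 (limma adjusted p = 0.26 and 0.81). Cabin1 of the same list differed by −0.02 (limma adjusted p = 0.96). Daxx, Atrx and Cabin1 were named after their values were seen, and whether they differ from Hira was not tested. The importin gene Ipo4 had the lowest p after Rbbp4 among genes not past the threshold (log2 difference −0.43, limma adjusted p = 0.079). Mis18a, which licenses centromeres for new CENP-A, fell by 1.48. Of the other variant genes, Cenpa, the gene of the centromere H3, had 5.76 ± 0.48 in null arrays and 7.98 ± 0.58 in wild type arrays (SD, n = 3 each) and fell 4.68-fold (limma adjusted p = 0.015), and H2aj, the gene of H2A.J, differed by −0.25 (limma adjusted p = 0.29).

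**Figure D4:**
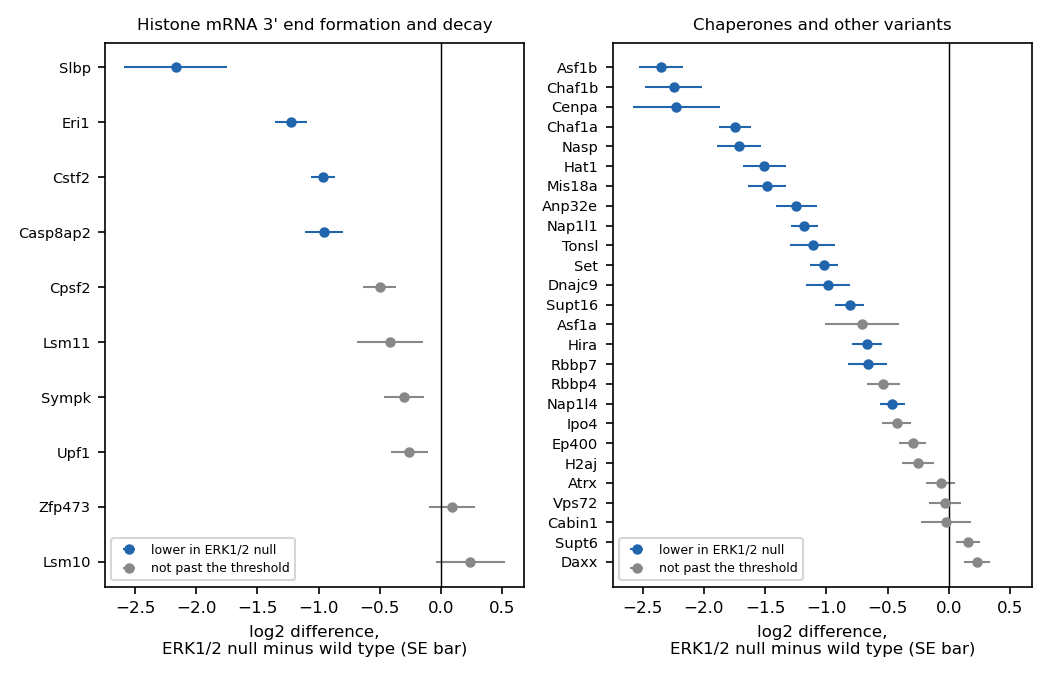
Log2 difference, ERK1/2 null minus wild type, with its standard error for genes of histone RNA processing (left) and for histone chaperones with the variants Cenpa and H2aj (right). The lowest points are Slbp at −2.17 on the left and Asf1b at −2.35 on the right, and no gene in either panel lies above 0.24.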

How the data were processed

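The authors deposited 1 table of log2 expression for 6 arrays. The submitters' processing notes name RMA, which corrects background, normalizes between arrays and sums up probes; its version, build and annotation are not given in the sources used here. No label gives the scale: values between 0.74 and 14.32, with 0 missing, showed it to be log2. Per the labels' protocols total RNA was extracted with Trizol and labelled as biotinylated cRNA, and how it was primed is not stated, which matters for histone RNA without a poly(A) tail. Array values have no read depth, and the number of arrays limits precision.

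Of 16775 probe sets, the platform annotation lists 16015, 14996 with 1 gene and 1019 with several; 760 are unlisted. Older gene names were matched through gene identifiers in the gene table of GRCm38.p6 (13 of the 40 members needed this). Every probe set was fitted with limma 3.58.1 (lmFit, eBayes) in R 4.3.3 with no block, 2-sided, with Benjamini-Hochberg adjustment over all of them, called at an adjusted p under 0.05. Lists used the brightest single-gene probe set of a gene. Deviations from group means correlated between arrays of equal number (r = 0.56, 0.34 and 0.44 across probe sets for numbers 1, 2 and 3). Arrays of equal number were treated as pairs only in the differences per replicate number and in the blocked limma fits. The main calls, SEs and p-values ignore this pairing, and the blocked limma fit is quoted wherever its call differs. Members, lists, tests and the rule for named genes (every member; of the other lists each called gene, each call changed by the block and the 2 next lowest p) were chosen with earlier results of these data known. The fit was tested on simulated data in which arrays varied independently. That test cannot show how the unblocked fit behaves when arrays of equal number deviate together. Joins used pandas 2.3.3 (Python 3.11.15). Alternatives were quantile normalization, array medians, a level filter, another variance prior, array weights, 1 probe set a gene, the block (fixed or random), leaving out arrays and a stricter threshold.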

Additional observations from a re-analysis of the deposited data

How the results depend on the processing

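No histone probe set, processing gene or chaperone gene with a call changed direction under the alternatives run. The count of 13 histone decreases was 12 to 13 with quantile normalization, array medians subtracted, the level filter, another variance prior or array weights, and 16 with the replicate block, fixed or random. It fell to 6 with 1 probe set a gene, which leaves out multi-gene probe sets, to 2 without replicate 1 of both groups and to 1 at an adjusted p under 0.01. Leaving out single arrays gave 1 to 12: 1 when null replicate 2 was absent, 2 for wild type replicate 3, 4 for either replicate 1, 8 for null replicate 3 and 12 for wild type replicate 2. These fits have fewer arrays, and no other cause was tested. The 1 increase became 0 with 1 probe set a gene and 2 with the fixed or random block. The 4 decreases among processing genes ranged from 2 to 4 without single arrays and were 2 at an adjusted p under 0.01. The 16 decreases among chaperones and other variants were 11 to 15 without single arrays and 9 at an adjusted p under 0.01. Over all probe sets 937 decreases and 805 increases were called, 449 to 716 and 267 to 641 without single arrays, 340 and 159 at an adjusted p under 0.01, and 535 decreases without replicate 1 of both groups. With the fixed block 1203 were lower and 1376 higher, and 1371 were higher with the random block, so increases then outnumbered decreases. Among histone, processing, chaperone and variant genes the fixed block changed no call other than those named in the report. The random block differed from it in not calling H2bc1 and Asf1a, in keeping H1f10 and Nap1l4, and in adding Cpsf2 and Ipo4, both also called with quantile normalization or array medians subtracted; the level filter added Rbbp4.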

Other observations

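A probe set annotated to both H2az1, the gene of the variant H2A.Z.1, and Zfyve1, which encodes a protein of the endoplasmic reticulum and Golgi, was left out because it names a gene that is no histone. It had 8.41, 8.63 and 8.43 in ERK1/2 null arrays and 7.73, 7.94 and 7.63 in wild type arrays (log2 RMA values), so every null array was above every wild type array. The increase was 1.65-fold (log2 difference 0.72, SE 0.13, limma adjusted p = 0.022) and its call was kept in 2 of the 6 fits that left out 1 array. The annotation does not say which of the 2 genes it measures. A probe set shared by Trim17 and H2aw, left out for the same reason, differed by 0.22 (SE 0.23, limma adjusted p = 0.63).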
